A study of Mus musculus with 12 samples.

Results

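The genes described here are the 3 mammalian TGF-beta ligands (*Tgfb1*, *Tgfb2* and *Tgfb3*), their 3 receptors (*Tgfbr1*, *Tgfbr2* and *Tgfbr3*), 3 latent TGF-beta binding proteins (*Ltbp1*, *Ltbp2* and *Ltbp3*) and the TGF-beta induced matrix protein *Tgfbi*. They are 10 of the 20368 genes in the expression table and were chosen by name and function. RNA-seq was performed on whole embryonic hearts of CD1 mice at E11.5 and E12.5. At each stage *Mesp1Cre*;*Hira*+/fl hearts (Cre controls) were compared with *Mesp1Cre*;*Hira*-/fl hearts (mutants), and each of these 4 groups has 3 libraries. All 12 libraries carry the *Mesp1Cre* knock-in allele and 1 floxed *Hira* allele, so the Cre controls keep 1 intact *Hira* allele in the recombined cells and the mutants, which carry a null allele in every cell, keep none there. *Mesp1Cre* recombines in the cardiogenic mesoderm, so that heart cells of other origins, such as neural crest, still express *Hira* from the floxed allele. HIRA is a chaperone that places histone H3.3 on chromatin. The comparisons ask whether its loss from this mesoderm altered transcription in the heart at stages ahead of the most severe defects.

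TGF-beta is secreted as a latent complex, in which the mature ligand is held by its own propeptide, and latent TGF-beta binding proteins tether this complex to fibrillin and fibronectin in the matrix until integrins or proteases release it. The free ligand is bound by the type II receptor TGFBR2, with or without the co-receptor betaglycan (TGFBR3), and TGFBR2 then phosphorylates the type I receptor TGFBR1, which activates SMAD2 and SMAD3. In the embryonic heart the pathway is known for its part in the endothelial-to-mesenchymal transition that fills the endocardial cushions, and in the outflow tract and epicardium.

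The promoter windows of 4 of these genes are shown because the genes are those the results turn on: *Ltbp3* and *Tgfbr2*, which among the tested genes differed most between stages in the Cre controls, and *Tgfb1* and *Tgfb2*, which together made up most of the ligand transcripts. Each window holds the 250 bases upstream of a RefSeq transcription start (GRCm38.p6), written 5′ to 3′ on the strand of the gene. Capitals mark matches on either strand to the GC box GGGCGG, the SMAD-binding core CAGAC, the TATA box TATAAA and the GAGA repeat GAGAGA. Each start position of a match was counted, overlapping matches included.
*Ltbp3*, chr19:5740650-5740899, + strand: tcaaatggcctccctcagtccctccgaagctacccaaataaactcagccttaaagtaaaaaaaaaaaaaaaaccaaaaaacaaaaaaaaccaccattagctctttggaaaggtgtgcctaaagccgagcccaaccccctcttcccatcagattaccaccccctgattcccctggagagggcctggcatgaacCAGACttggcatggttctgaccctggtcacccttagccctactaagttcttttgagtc
*Tgfbr2*, chr9:116175364-116175613, - strand: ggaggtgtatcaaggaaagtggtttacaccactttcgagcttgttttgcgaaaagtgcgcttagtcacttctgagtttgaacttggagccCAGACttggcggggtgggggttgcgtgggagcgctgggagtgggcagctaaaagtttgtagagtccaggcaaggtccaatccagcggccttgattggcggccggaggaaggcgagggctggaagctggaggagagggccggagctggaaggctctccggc
*Tgfb1*, chr7:25686752-25687001, + strand: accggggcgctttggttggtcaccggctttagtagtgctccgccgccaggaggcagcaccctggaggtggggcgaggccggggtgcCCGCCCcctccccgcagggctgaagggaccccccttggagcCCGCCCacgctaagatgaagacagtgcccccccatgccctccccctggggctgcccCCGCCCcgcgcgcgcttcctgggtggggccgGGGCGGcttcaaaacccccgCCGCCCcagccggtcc
*Tgfb2*, chr1:186705990-186706239, - strand: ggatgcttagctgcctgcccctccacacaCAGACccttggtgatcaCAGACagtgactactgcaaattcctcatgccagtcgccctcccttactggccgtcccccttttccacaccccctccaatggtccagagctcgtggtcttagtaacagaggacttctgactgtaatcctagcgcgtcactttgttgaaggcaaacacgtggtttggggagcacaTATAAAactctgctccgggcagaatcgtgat
The windows differ in make-up. The *Tgfb1* window has a GC content of 75.2% and 5 GC boxes, against a median GC content of 52.4% over all promoter windows, 32.7% of which hold a GC box. The *Tgfb2* window has no GC box, 2 SMAD-binding cores and a TATA box near its 3′ end, and 12.4% of all windows hold a TATA box. The *Ltbp3* window has a GC content of 47.2%, no GC box and 1 SMAD-binding core, and the *Tgfbr2* window has a GC content of 58.4%, no GC box and 1 such core, a motif held by 42.2% of all windows. The GAGA repeat, held by 20.2% of the 32817 windows, is in none of the 10 windows matched to 8 of the genes. It was searched because the study describes a longer GAGA motif in part of the regions bound by HIRA. Those bound regions lay mostly between genes or in introns, not in promoter windows such as these. The absence of the shorter repeat here therefore does not bear on HIRA binding at these genes, which was not tested. *Tgfb3* and *Tgfbr3* had no window in the table.

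The reads assigned to genes numbered 11994148 to 17483982 per library. 1 library stood apart: mutant replicate 3 at E11.5 had the lowest total and the most genes detected (16332), and its expression correlated with the other libraries of its group at r = 0.972 to 0.974, where the other 2 correlated at 0.988. *Hira* itself, counted over the whole gene, stood at 17.2 ± 1.96 RPKM (reads scaled by gene length and by library size, with the SD over n = 3 libraries) in Cre controls and 14.3 ± 1.86 in mutants at E11.5, and at 16.6 ± 2.89 and 16.3 ± 1.14 at E12.5, with no difference past the test (adjusted p = 0.589 and 0.961, edgeR). Whole-gene counts include transcripts of the deleted allele, so they check the genotype labels poorly. Cardiomyocyte markers (7 of 7 measured) were abundant in every group, with a summed level of 9318 to 12383 RPKM. Sex, read from Y-linked genes, was uneven: the E11.5 Cre controls were 3 males, the E11.5 mutants 2 females and 1 male, the E12.5 Cre controls 2 females and 1 male, and the E12.5 mutants 1 male and 2 females. Library codes in the labels also differ between the stages, so stage and any batch that goes with it cannot be told apart. The sources do not say whether a library came from 1 heart or from several, and the p-values measure the spread between these libraries.

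All members were transcribed in the embryonic heart, at levels that spanned more than 2 orders of magnitude per length. *Tgfbi*, which encodes a secreted matrix protein that binds integrins and collagen, had the highest level, with a mean of 56.4 RPKM over the 12 libraries (SD 14.6). *Ltbp1* followed at 28.7 (SD 2.83), then *Tgfbr1* at 22.5 (SD 2.46), *Tgfb2* at 21.0 (SD 3.43), *Tgfb1* at 17.2 (SD 3.78), *Tgfbr3* at 13.5 (SD 3.04), *Ltbp3* at 10.8 (SD 4.34), *Tgfbr2* at 9.04 (SD 1.45) and *Tgfb3* at 6.77 (SD 1.04). *Ltbp2* came last at 0.225 RPKM (SD 0.0993), from 7 to 47 reads per library. It was the only member whose range over the 12 libraries did not touch that of its neighbour in this order, and the other neighbours overlapped. Within libraries the order was steadier, since *Tgfbi* lay above *Ltbp1* and *Ltbp1* above *Tgfbr1* in 12 of 12 libraries, whereas *Tgfbr1* lay above *Tgfb2* in 8 and *Tgfbr3* above *Ltbp3* in 8. Of the 12270 genes with a mean of at least 0.5 RPKM, 87.2% had a lower mean than *Tgfbi*, 75.2% a lower mean than *Ltbp1* and 35.7% a lower mean than *Tgfb3*.

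**Figure D1:**
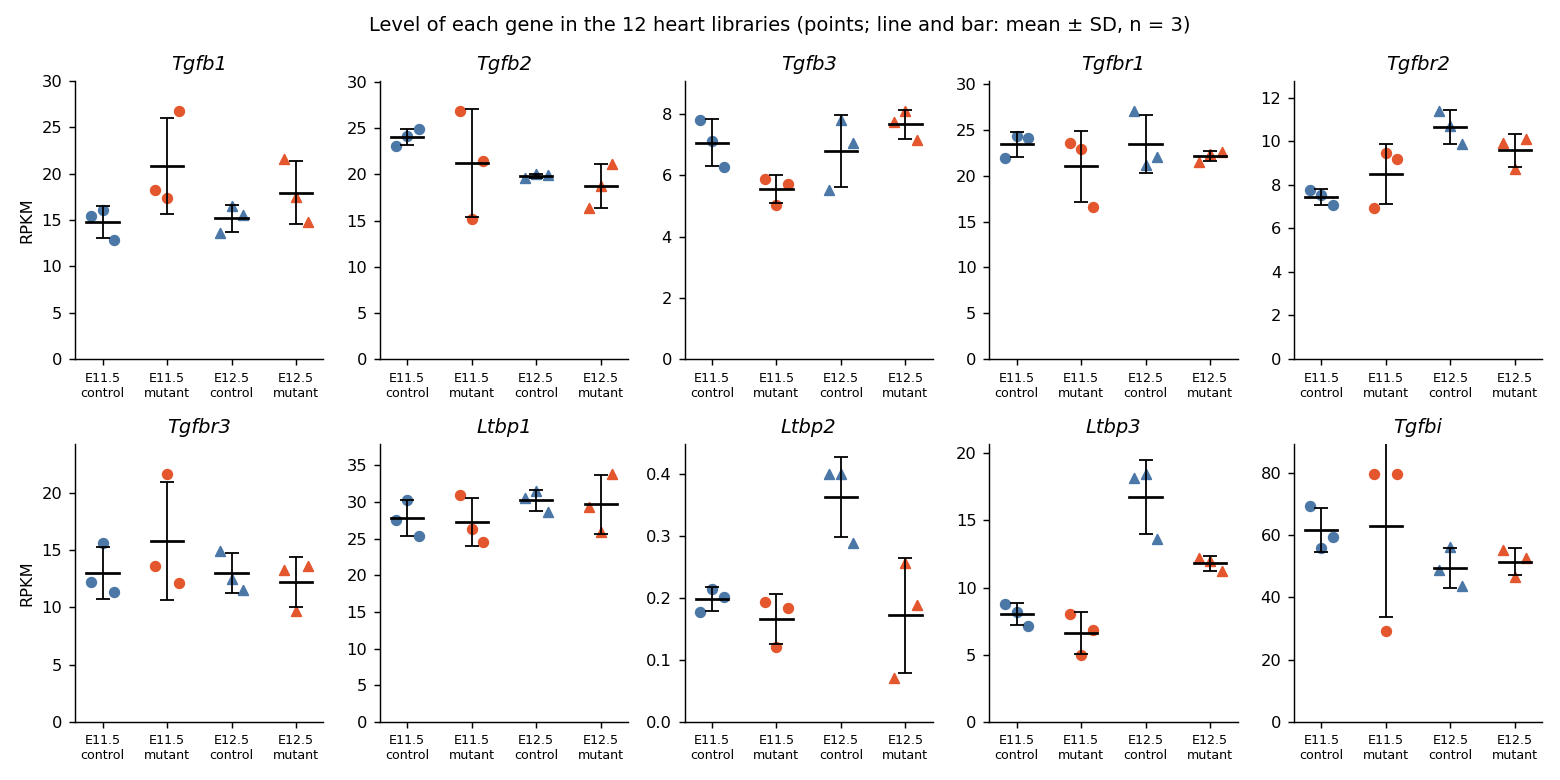
Level of each of the 10 genes in RPKM (y axis, from 0) in the 4 groups of 3 libraries (x axis; blue: Cre control, red: mutant, circles: E11.5, triangles: E12.5). Points are libraries, and the line and bar are the mean ± SD. *Ltbp3* stands at 13.6 to 18.5 RPKM in the E12.5 Cre controls against 7.14 to 8.81 in the E11.5 Cre controls, and 1 E11.5 mutant library lies far below the other 2 for *Tgfbi*, at 29.2 RPKM.

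A gene was called changed at an adjusted p of at most 0.05 (edgeR's quasi-likelihood test with Benjamini-Hochberg adjustment over all genes tested) and a fold change of at least 1.5. Genes with a mean of at least 0.5 RPKM over the libraries of a comparison were tested, which 9 of the 10 members passed in every comparison. *Ltbp2* did not pass and its fold changes are given from the fit without this filter.

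The clearest difference among these genes was between stages rather than genotypes. *Ltbp3*, whose product binds and helps secrete latent TGF-beta, rose between E11.5 and E12.5 in the Cre controls. Its level was 8.81, 8.17 and 7.14 RPKM in the E11.5 Cre controls and 18.2, 18.5 and 13.6 RPKM in the E12.5 Cre controls. Every E12.5 library lay above every E11.5 library, and the rise was 2.09-fold (log2 difference 1.06 ± 0.13 SE, 95% interval 0.76 to 1.36, edgeR's adjusted p = 0.00507). It was the only one of the 9 members tested that was called (11.1%), where 5.31% of the 12250 genes tested were called. The call held without each of the 6 libraries in turn, with log2 fold changes of 0.98 to 1.19. With sex as a covariate the log2 fold change was 0.76 and the call was lost (adjusted p = 0.131). That setting called 19 of the 12250 genes, against 650 without the covariate. Among males alone, the 3 E11.5 Cre controls stood at 7.14 to 8.81 RPKM and the 1 E12.5 Cre control at 13.6, and the E11.5 group held no female.

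In the mutants *Ltbp3* stood at 8.02, 4.96 and 6.83 RPKM at E11.5 and at 12.2, 12.0 and 11.2 RPKM at E12.5. The groups again did not overlap, as for 17.4% of the 12237 genes tested, and the log2 fold change was 0.84 (SE 0.17, 95% interval 0.45 to 1.24). This missed the threshold with edgeR on these 6 libraries (adjusted p = 0.101) and passed it with DESeq2 (adjusted p = 0.00169) and with edgeR over all 12 libraries (adjusted p = 0.0266). Of the 9 members 0 were called between stages in the mutants with edgeR, where 0.523% of all genes were called, and 2 had an unadjusted p under 0.05, as did 9.13% of all genes. With DESeq2 1 was called, where DESeq2 called 1.85% of all genes, and with limma 0. The other of these 2 members was *Tgfb3*, at 5.89, 5.04 and 5.72 RPKM in the E11.5 mutants and 7.73, 8.11 and 7.17 RPKM in the E12.5 mutants. All E12.5 mutants were higher, by 1.39-fold (log2 difference 0.47 ± 0.13 SE, unadjusted p = 0.00499, edgeR's adjusted p = 0.23). The stage effects of *Ltbp3* in the 2 genotypes differed by -0.22 on the log2 scale (mutants minus Cre controls), which was within its error (95% interval of the difference -0.72 to 0.28, adjusted p = 0.954, edgeR on 12 libraries).

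*Tgfbr2*, the receptor that first binds free ligand, was the second member that differed between stages in the Cre controls. It stood at 7.75, 7.52 and 7.06 RPKM at E11.5 and at 11.4, 10.7 and 9.87 RPKM at E12.5. The groups did not overlap, as for 37.4% of all genes in this comparison. The difference was 1.43-fold (log2 difference 0.51 ± 0.10 SE, edgeR's adjusted p = 0.0198), which is under the fold threshold, and an adjusted p of at most 0.05 at any fold was met by 11.3% of all genes. With sex as a covariate, a setting that called 19 of 12250 genes, its adjusted p was 0.472. It was 0.0547 without E11.5 Cre control replicate 3, 0.0997 without E12.5 Cre control replicate 1 and 0.0912 without E12.5 Cre control replicate 2, and at most 0.0486 without each of the other 3 libraries. In the mutants *Tgfbr2* stood at 6.92, 9.44 and 9.17 RPKM at E11.5 and at 9.92, 8.72 and 10.1 at E12.5, and the groups overlapped (log2 difference 0.18 ± 0.14 SE, edgeR's adjusted p = 0.747). The stage effects of *Tgfbr2* in the 2 genotypes differed by -0.34 on the log2 scale (mutants minus Cre controls, 95% interval -0.71 to 0.02, edgeR's adjusted p = 0.954).

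In the Cre controls the 95% intervals of *Tgfbr1* (log2 fold change -0.24 to 0.25), *Tgfbr3* (-0.31 to 0.30), *Tgfb1* (-0.23 to 0.31), *Tgfb3* (-0.38 to 0.27) and *Ltbp1* (-0.09 to 0.34) all lay inside a 1.5-fold change in either direction. In the mutants the interval also lay inside it for *Tgfbr1* and *Ltbp1*, but not for *Tgfbr3* (log2 difference -0.37, 95% interval -0.89 to 0.15), *Tgfb1* (-0.64 to 0.25) and *Tgfb3* (0.19 to 0.76). *Tgfb2* was at 23.1, 24.2 and 24.9 RPKM in the E11.5 Cre controls and at 19.6, 20.0 and 19.9 RPKM in the E12.5 Cre controls. The E12.5 libraries were all lower, by 1.21-fold, which is under the fold threshold (log2 difference -0.28 ± 0.09 SE, edgeR's adjusted p = 0.0584). *Tgfbi* was lower by 1.24-fold (adjusted p = 0.107, edgeR), with overlapping groups. *Ltbp2* had 18, 22 and 19 reads in the E11.5 Cre controls and 40, 47 and 31 in the E12.5 Cre controls, which gave a log2 difference of 0.87 (SE 0.33, edgeR's adjusted p = 0.104 without the filter). The median log2 fold change of the 9 members was 0.0021 and that of all genes 0.009.

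**Figure D2:**
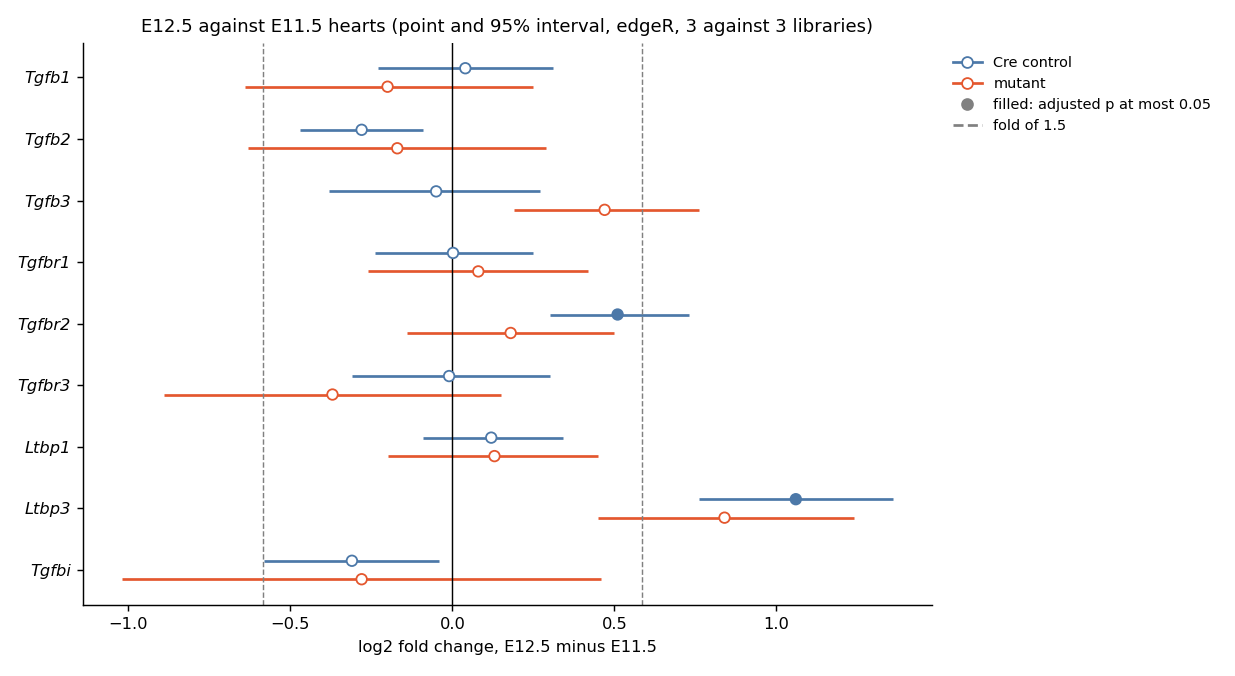
Log2 fold change of E12.5 against E11.5 (x axis) for the 9 tested members (y axis), in Cre controls (blue) and mutants (red). Points are edgeR estimates and lines their 95% intervals, filled points have an adjusted p of at most 0.05, and dashed lines mark a fold of 1.5. *Ltbp3* lies to the right of the 1.5-fold line in both genotypes, at 1.06 and 0.84, and *Tgfbr2* in the Cre controls lies to the left of that line, at 0.51.

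Marker genes of other cell types also differed between the stages. In the Cre controls the summed level of 5 skeletal muscle markers was 10.4 to 16.5 RPKM at E11.5, where 2 of them had no read, and 45.5 to 49.4 RPKM at E12.5, where 1 had none. Only 1 of the 5 passed the filter on level, and it was called higher (log2 difference 1.86), so the sum does not show a change of the list. The 5 macrophage markers went from 9.37 to 21.7 RPKM to 23.6 to 28.1 RPKM, and 1 was called higher. Of 6 epicardial markers 4 were called lower (summed level 226 to 350 against 148 to 220 RPKM, groups without overlap). In this comparison 5.31% of all genes were called. The 4 smooth muscle markers summed to 1335 to 1633 RPKM at E11.5 and 833 to 1127 at E12.5. Of the 3 tested 1 was called lower, and their median log2 difference was -0.42. Of 4 red blood cell markers 2 were called lower (6481 to 8071 against 5515 to 9013 RPKM, with overlap). The 7 endothelial and endocardial markers stood at 279 to 325 and 340 to 351 RPKM, without overlap. The 6 cushion mesenchyme markers, at 132 to 157 and 128 to 168 RPKM, overlapped, as did the cardiomyocyte, liver and neural crest markers. Fewer cells of a type and less RNA per cell cannot be told apart in whole hearts, and the part of these markers in the differences of *Ltbp3* and *Tgfbr2* was not tested.

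Between genotypes, no member passed both thresholds at either stage. At E11.5, 0 of the 9 members were called with edgeR, DESeq2 or limma, where 0.115% of the 12197 genes tested were called with edgeR. An unadjusted p under 0.05 was met by 2 members and by 10.3% of all genes. At E12.5, 0 were called with edgeR, DESeq2 or limma, where edgeR called 3.03% of 12256 genes, and 1 member and 21.3% of all genes had an unadjusted p under 0.05. Over both stages together 0 were called with each of these tools, where edgeR called 3.19% of 12270 genes, and 2 members and 19.4% of all genes had an unadjusted p under 0.05. The median absolute log2 fold change of the 9 members was 0.19 at E11.5 and 0.08 at E12.5, and that of all genes 0.14 and 0.13.

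*Ltbp3* came nearest to the thresholds. At E12.5 it stood at 16.8 ± 2.75 RPKM (SD, n = 3) in Cre controls and 11.8 ± 0.54 in mutants, and the 11.2 to 12.2 RPKM of the mutants lay below the 13.6 to 18.5 RPKM of the Cre controls, a separation shown by 26.4% of all genes. The level in mutants was lower by 1.41-fold (log2 difference -0.49 ± 0.11 SE, 95% interval -0.74 to -0.25, edgeR's adjusted p = 0.0299), which is past the p threshold, as for 5.12% of all genes, and short of the fold threshold. The adjusted p of *Ltbp3* depended on single libraries. It was 0.0709 to 0.118 when any of the other 5 libraries was left out, and without Cre control replicate 3 it was 0.0035 with a log2 fold change of -0.62, which passed both thresholds. Within females the levels were 18.2 and 18.5 RPKM in the Cre controls and 11.2 and 12.0 in the mutants, and within males 13.6 and 12.2 RPKM. At E11.5 *Ltbp3* was at 8.04 ± 0.845 RPKM in Cre controls and 6.61 ± 1.54 in mutants, with overlapping groups (log2 difference -0.28 ± 0.18 SE, edgeR's adjusted p = 0.703). Over both stages the log2 difference was -0.40 (SE 0.12, edgeR's adjusted p = 0.0531).

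Of the members, *Tgfb1* and *Tgfbi* had a higher mean in the mutants at both stages. At E11.5 *Tgfb1* stood at 15.4, 16.1 and 12.9 RPKM in the Cre controls and at 18.3, 17.4 and 26.8 RPKM in the mutants. All 3 mutant libraries lay above the Cre controls, as in 16.3% of all genes the groups did not overlap, and the difference of 1.40-fold did not pass the test (log2 difference 0.49 ± 0.19 SE, edgeR's adjusted p = 0.393). Without mutant replicate 3, the library that stood apart, it was 0.27 (adjusted p = 0.344), and with sex as a covariate 0.85 (SE 0.16, edgeR's adjusted p = 0.068). Among males the 3 Cre controls stood at 12.9 to 16.1 RPKM and the 1 mutant, which is replicate 3, at 26.8. At E12.5 the levels were 13.6, 16.5 and 15.5 RPKM in the Cre controls and 21.6, 17.5 and 14.8 RPKM in the mutants. These groups overlapped (log2 difference 0.25 ± 0.13 SE, edgeR's adjusted p = 0.305). Over both stages the log2 fold change was 0.36 (SE 0.12, 95% interval 0.10 to 0.63, adjusted p = 0.103, edgeR), with an adjusted p of 0.0498 by DESeq2 and of 0.0401 with sex as a covariate, and a fold of 1.29 that stayed under the threshold.

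*Tgfb3*, the least abundant ligand, differed in opposite directions at the 2 stages, though neither difference passed the test. At E11.5 it was at 7.80, 7.14 and 6.28 RPKM in the Cre controls and at 5.89, 5.04 and 5.72 RPKM in the mutants. The mutant libraries were all lower (log2 difference -0.35 ± 0.15 SE, edgeR's adjusted p = 0.459). At E12.5 the Cre controls were at 5.53, 7.81 and 7.05 RPKM and the mutants at 7.73, 8.11 and 7.17 RPKM. These overlapped (log2 difference 0.19 ± 0.13 SE, edgeR's adjusted p = 0.44). The mutant effect was more positive at the later stage, with a log2 difference between the effects of 0.52 (SE 0.19, 95% interval 0.10 to 0.94, unadjusted p = 0.0185, adjusted p = 0.954, edgeR on 12 libraries). It was the only member with an unadjusted p under 0.05 in this test, in which 0 of the 9 members and 0% of the 12270 genes were called with edgeR and 4.5% of genes had an unadjusted p under 0.05. DESeq2 and limma also called 0 members.

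*Tgfb2*, which is required for normal septation and outflow tract development, stood at 24.1 ± 0.922 RPKM (SD, n = 3) in Cre controls and 21.2 ± 5.86 in mutants at E11.5. The spread of the mutants was wide, at 26.9, 15.2 and 21.5 RPKM. At E12.5 its means were 19.8 ± 0.211 and 18.7 ± 2.36 RPKM, and the 95% interval of the log2 fold change was -0.27 to 0.13. *Tgfbi* had the same wide spread in the E11.5 mutants, at 79.8, 29.2 and 79.8 RPKM, against 69.4, 55.7 and 59.5 RPKM in the Cre controls. *Tgfbr3* showed the reverse, with 21.7 RPKM in mutant replicate 2 and 13.6 and 12.1 in the other 2. The library low for *Tgfb2* and *Tgfbi* and high for *Tgfbr3* was mutant replicate 2 in each case, and it also had the highest summed level of 7 endothelial and endocardial markers, 450 RPKM against 279 to 403 in the other 11 libraries. The part of these markers was not tested. At E12.5 the mutants of *Tgfbi* (55.1, 46.6 and 52.6 RPKM) lay within or near the range of the Cre controls (48.7, 56.3 and 43.5 RPKM), and its 95% interval was -0.15 to 0.29 on the log2 scale.

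For the receptors and *Ltbp1* the intervals of the difference at E12.5 lay inside a 1.5-fold change. The 95% intervals at E12.5 were -0.27 to 0.14 for *Tgfbr1*, -0.34 to 0.06 for *Tgfbr2*, -0.37 to 0.21 for *Tgfbr3* and -0.22 to 0.20 for *Ltbp1*, on the log2 scale. In all, 8 of the 9 tested members had an interval inside a 1.5-fold change at E12.5 and 3 of 9 at E11.5, where the intervals were wider. *Tgfbr1*, the kinase that activates SMAD2 and SMAD3, was at 22.2 ± 0.556 RPKM in the E12.5 mutants and 23.5 ± 3.17 in the Cre controls. *Ltbp1* held the steadiest level of all members, with means of 27.8, 27.3, 30.2 and 29.7 RPKM in the E11.5 Cre controls, E11.5 mutants, E12.5 Cre controls and E12.5 mutants. *Ltbp2* had 40, 47 and 31 reads in the E12.5 Cre controls and 7, 29 and 19 in the mutants. Without the filter the log2 difference was -1.04 (SE 0.38, edgeR's adjusted p = 0.136), from counts too low to be tested in the main comparison.

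**Figure D3:**
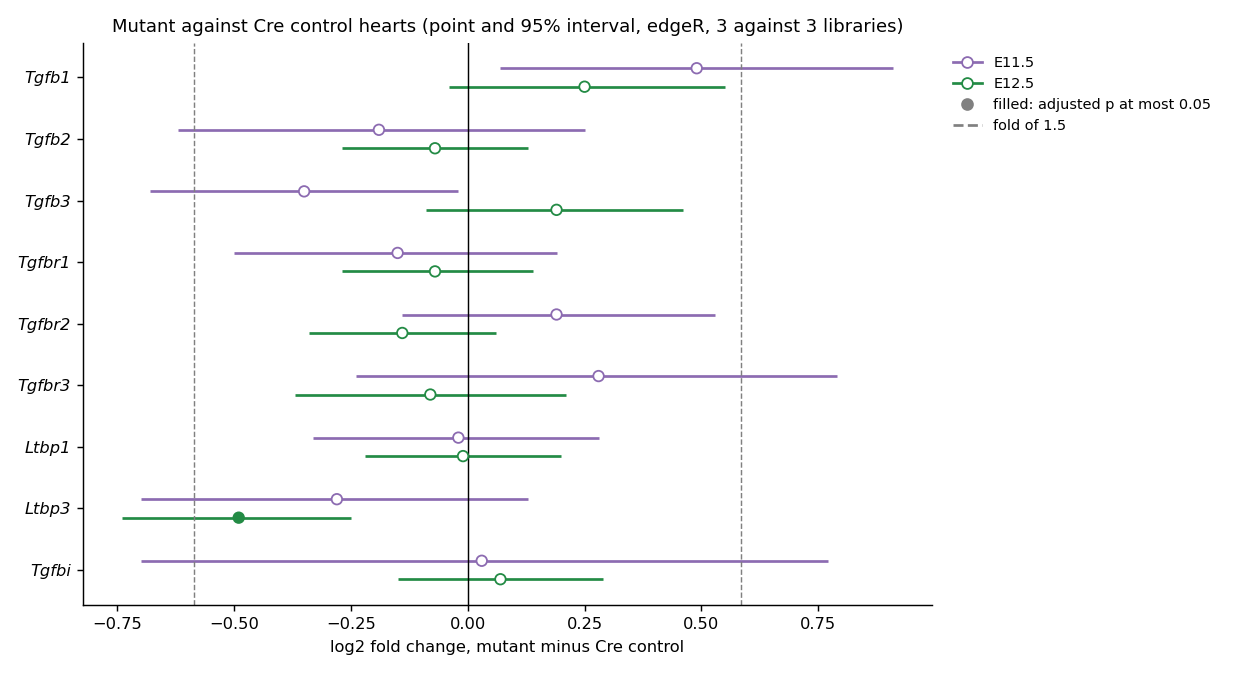
Log2 fold change of mutants against Cre controls (x axis) for the 9 tested members (y axis) at E11.5 (purple) and E12.5 (green). Points are edgeR estimates and lines their 95% intervals, filled points have an adjusted p of at most 0.05, and dashed lines mark a fold of 1.5. Intervals are narrower at E12.5, where *Ltbp3* at -0.49 is the filled point.

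The relative make-up of the latent binding proteins shows the same genes together. *Ltbp4*, a latent binding protein outside the 10 genes, was included for this purpose, and each share is of the summed RPKM of *Ltbp1* to *Ltbp4*. The share of *Ltbp3* was 16.4, 13.4 and 14.1% in the E11.5 Cre controls and 9.78, 8.68 and 10.7% in the E11.5 mutants. At E12.5 it was 24.5, 23.0 and 19.9% in the Cre controls and 13.4, 15.8 and 13.8% in the mutants. At both stages every mutant library lay below every Cre control, which is the smallest p that 3 libraries against 3 allow (two-sided exact permutation p = 0.1). The share of *Ltbp4* was the counterpart, at 34.6 ± 2.47% in Cre controls and 49.3 ± 3.69% in mutants at E11.5, and at 36.3 ± 2.06% and 49.4 ± 5.16% at E12.5 (SD, n = 3). Because shares sum to a fixed total, the higher *Ltbp4* lowers the share of each other gene. *Ltbp1* had 50.4 ± 0.91% and 40.8 ± 4.53% at E11.5, and *Ltbp2* at most 0.537% in any library.

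Among the ligands *Tgfb2* was the most abundant per length, with 46.7% of the summed RPKM of the 3 genes over the 12 libraries (range 35.8 to 56.4%). *Tgfb1* had 38.2% (29.3 to 49.6%) and *Tgfb3* 15.2% (10.6 to 18.3%). In the E11.5 mutants *Tgfb1* had 43.9 ± 7.16% against 32.1 ± 2.48% in the Cre controls, without overlap (exact permutation p = 0.1), and at E12.5 40.4 ± 6.51% against 36.3 ± 1.06%, with overlap (exact permutation p = 0.4). *Tgfb3* had 11.9 ± 1.44% in the E11.5 mutants against 15.4 ± 1.35%, also without overlap.

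**Figure D4:**
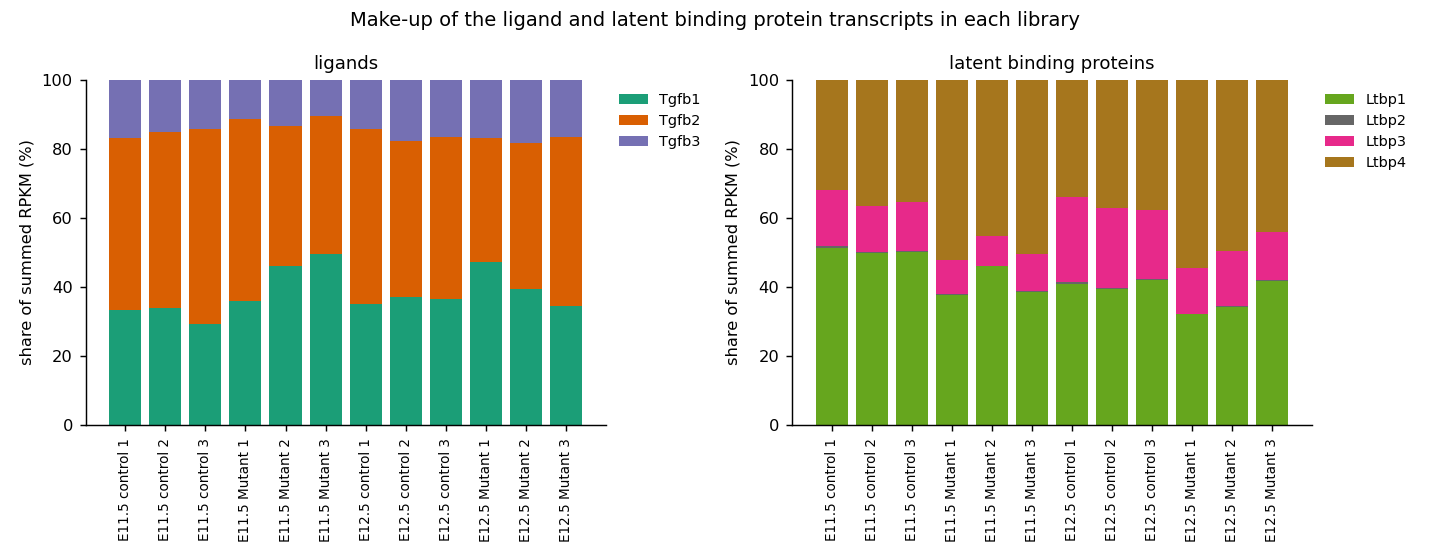
Share of the summed RPKM (y axis, %) of the ligands (left) and of the latent binding proteins (right) in each of the 12 libraries (x axis). Stacked bars are single libraries. The *Ltbp4* part is larger in the mutants, at 44.1 to 54.4%, than in the Cre controls, at 31.8 to 37.7%, and the *Ltbp3* part is smaller in the mutants of each stage.

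Of 38 other genes of the pathway, in 4 lists, 37 were tested. At E12.5, 2 were called, 1 in each direction (5.41%), where 3.03% of all genes were called. *Ltbp4* rose in the mutants, from 25.2, 29.8 and 25.8 RPKM in the Cre controls to 49.6, 37.7 and 35.7 RPKM (log2 difference 0.62 ± 0.12 SE, edgeR's adjusted p = 0.0158). *Postn*, a matrix protein of cushion and valve mesenchyme that is induced by TGF-beta, fell from 172, 191 and 137 RPKM to 106, 126 and 92.1 RPKM (log2 difference -0.61 ± 0.13 SE, edgeR's adjusted p = 0.0239). Both lie just past the 1.5-fold threshold, at 1.54-fold and 1.53-fold. *Ltbp4* lost its call without Cre control replicate 1 and without mutant replicate 1, and *Postn* lost its call without either of these, without Cre control replicate 2 and without mutant replicate 3. *Smad7*, the inhibitory SMAD that TGF-beta itself induces, was higher in all 3 mutants, at 8.80, 8.31 and 8.24 RPKM against 6.31, 6.64 and 7.07 RPKM, by 1.28-fold (adjusted p = 0.0423, edgeR, under the fold threshold). The collagen gene *Col1a2* was lower in all 3 mutants, by 1.32-fold (adjusted p = 0.0334, edgeR, under the fold threshold). It stood at 190, 175 and 167 RPKM in the Cre controls and at 151, 127 and 120 RPKM in the mutants. The separation of the groups seen for *Smad7* and *Col1a2* was shown by 26.4% of all genes. In all, 4 of the 37 genes had an adjusted p of at most 0.05 at any fold, as did 5.12% of all genes.

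By list at E12.5, 0 of 11 SMADs and regulators of SMADs were called with edgeR and DESeq2 (3 with an unadjusted p under 0.05) and their median log2 fold change was 0.06. Of the co-receptor gene *Eng* and the endothelial receptor gene *Acvrl1*, 0 were called with either tool and 0 had an unadjusted p under 0.05, with a median of -0.23. Of 10 tested genes for the activation and storage of latent TGF-beta 1 was called and 3 had an unadjusted p under 0.05, with a median of -0.14. Over the 37 genes 2 were called with edgeR (5.41%) and 12 had an unadjusted p under 0.05 (32.4%). Over all genes these shares were 3.03% and 21.3%. Of 14 genes induced by TGF-beta 1 was called and 6 had an unadjusted p under 0.05 (42.9%), with a median of -0.06. At E12.5, 7 of these 14 had a positive and 7 a negative fold change. At E11.5, 4 were positive and 10 negative (median -0.21), as they were over both stages together (median -0.09). The median of all genes was -0.002 at E12.5, -0.008 at E11.5 and -0.013 over both stages.

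At E11.5, 0 of the 37 genes were called with edgeR or limma, where edgeR called 0.115% of all genes, and 5 had an unadjusted p under 0.05 (13.5%), as did 10.3% of all genes. DESeq2 called 4 of the 37 (10.8%), where it called 2.03% of all genes: *Col1a1*, *Col1a2* and *Lrrc32*, which were lower in the mutants, and *Ltbp4*, which was higher. *Col1a2*, a chain of type I collagen, stood at 158, 195 and 140 RPKM in the Cre controls and at 106, 59.4 and 43.8 RPKM in the mutants (log2 difference -1.24 ± 0.30 SE, edgeR's adjusted p = 0.165). *Ltbp4* stood at 17.1, 22.3 and 17.9 RPKM and at 42.8, 25.8 and 32.2 RPKM (log2 difference 0.82 ± 0.20 SE, edgeR's adjusted p = 0.169).

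Over both stages together 4 of the 37 genes were called (10.8%), where 3.19% of all genes were called. *Ltbp4* rose in the mutants by 1.64-fold (log2 difference 0.71 ± 0.13 SE, edgeR's adjusted p = 0.00427), and its call held without each of the 12 libraries in turn. *Col1a2* fell by 0.83 on the log2 scale (SE 0.20, edgeR's adjusted p = 0.0245), and its call was lost without E11.5 Cre control replicate 1 (adjusted p = 0.0552) and held without each of the other 11 libraries. *Postn* fell by 0.59 (SE 0.17, edgeR's adjusted p = 0.0472), at the fold threshold. With 1 library left out the *Postn* call held only without E11.5 Cre control replicate 2 or without E11.5 mutant replicate 3, and the adjusted p ranged from 0.0175 to 0.106. *Lrrc32*, which encodes GARP, a membrane anchor for latent TGF-beta, fell by 1.20 (SE 0.32, edgeR's adjusted p = 0.0366), from 0.901 to 2.35 RPKM in the E11.5 Cre controls and 0.864 to 0.982 in the E12.5 Cre controls to 0.271 to 0.496 and 0.489 to 0.789 RPKM in the mutants. The *Lrrc32* call was lost without E11.5 Cre control replicate 2, any 1 of the 3 E11.5 mutants, E12.5 Cre control replicate 3 or E12.5 mutant replicate 2 (adjusted p = 0.0529 to 0.0816), and with sex as a covariate (0.0626). With limma on log2(RPKM + 0.5) its log2 difference was -0.70.

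**Figure D5:**
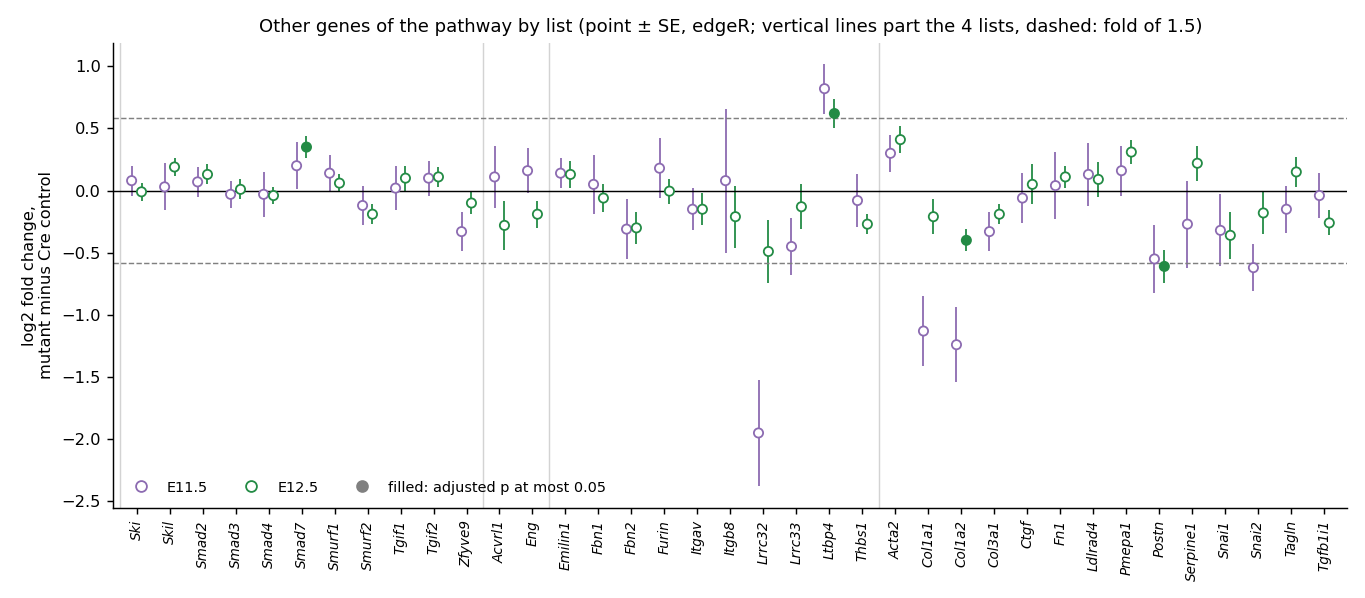
Log2 fold change of mutants against Cre controls (y axis) for the 37 tested pathway genes (x axis), in 4 lists parted by vertical lines, at E11.5 (purple) and E12.5 (green). Points are edgeR estimates ± SE, filled points have an adjusted p of at most 0.05, and dashed lines mark a fold of 1.5. Most points lie between the dashed lines, with *Ltbp4* above and *Postn* below at E12.5.

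Between stages in the Cre controls 2 of the 37 genes were called (5.41%), where 5.31% of all genes were called. *Acvrl1*, the type I receptor of endothelial cells, rose from 1.53, 1.27 and 1.39 RPKM to 2.15, 3.02 and 2.58 RPKM (log2 difference 0.89 ± 0.20 SE, edgeR's adjusted p = 0.0283). *Tagln*, a smooth muscle gene that is also transcribed in the early myocardium, fell from 293, 263 and 340 RPKM to 111, 132 and 151 RPKM (log2 difference -1.18 ± 0.14 SE, edgeR's adjusted p = 0.00334). With sex as a covariate, a setting that called 19 of 12250 genes, neither passed (adjusted p = 0.407 and 0.12). The *Acvrl1* call was also lost without either of E11.5 Cre control replicates 1 and 3 or of E12.5 Cre control replicates 1 and 2.

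Markers of other cell types moved with genotype as well. The 5 macrophage markers had a summed level of 9.37 to 21.7 RPKM in Cre controls and 4.53 to 5.84 in mutants at E11.5. At E12.5 it was 23.6 to 28.1 and 13.4 to 16.7 RPKM, and 4 of them were called lower, where 3.03% of all genes were called. The 6 epicardial markers summed to 226 to 350 RPKM in Cre controls and 148 to 193 in mutants at E11.5, with 0 called with edgeR. At E12.5 they summed to 148 to 220 and 182 to 206 RPKM. The 5 skeletal muscle markers stood at 45.5 to 49.4 and 31.8 to 43.8 RPKM at E12.5. Only 2 of these 5 passed the filter on level, with 0 called and a median log2 difference of 0.39. At E12.5, 3 of 4 red blood cell markers were called lower in the mutants (5515 to 9013 against 2992 to 3738 RPKM). The 7 endothelial and endocardial markers summed to 279 to 325 RPKM in Cre controls and 331 to 450 in mutants at E11.5, without overlap (median log2 difference 0.47), and to 340 to 351 and 340 to 403 RPKM at E12.5. The 4 smooth muscle markers stood at 833 to 1127 and 1174 to 1388 RPKM at E12.5, again without overlap (median log2 difference 0.41 over the 3 tested), and overlapped at E11.5. The 6 cushion mesenchyme markers overlapped at E12.5, at 128 to 168 and 123 to 132 RPKM. The 4 liver markers summed to 0.697 to 12.2 RPKM in Cre controls and 0.305 to 28.7 in mutants at E11.5. At E12.5 they summed to 1.98 to 3.08 and 2.14 to 25 RPKM (median log2 difference 2.14 over the 3 tested, 0 called). Mutant replicate 1 had the highest liver sum and the highest *Ltbp4* of the mutants at each stage. E11.5 Cre control replicate 1, at 12.2 RPKM, had the lowest *Ltbp4* of its group. The part of these markers in the differences of *Ltbp3*, *Tgfb1*, *Ltbp4*, *Postn*, *Col1a2* and *Lrrc32* was not tested.

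The members did not follow each other closely over the 12 libraries. The highest correlation of log2(CPM + 1) between 2 members was that of *Tgfb2* and *Tgfbi* (Pearson r = 0.75), followed by *Tgfbr2* and *Ltbp3* (r = 0.63), and the lowest that of *Tgfb1* and *Tgfbr1* (r = -0.81). The genes with the most similar pattern to *Ltbp3* among all tested genes were *Ncam1* (r = 0.96), *Col14a1* (r = 0.95) and *Col15a1* (r = 0.95). For *Tgfbr2* they were *Smoc1* (r = 0.96), *Lynx1* (r = 0.92) and *Cpt1b* (r = 0.90), for *Tgfb1* *Rbm42* (r = 0.94), *Tagln2* (r = 0.93) and *Gnl1* (r = 0.93), for *Tgfb2* *Tpbg* (r = 0.91), *Robo2* (r = 0.89) and *St6galnac5* (r = 0.89), and for *Tgfb3* *Dpep1* (r = 0.90), *Fam84a* (r = 0.88) and *Gabbr1* (r = 0.85). For *Tgfbr1* they were *Ttc3* (r = 0.94), *Zfp146* (r = 0.94) and *Lysmd3* (r = 0.93), for *Tgfbr3* *Abat* (r = 0.91), *Col13a1* (r = 0.89) and *Acpl2* (r = 0.89), for *Ltbp1* *Dbp* (r = 0.93), *Fasn* (r = 0.93) and *Sun1* (r = 0.91), and for *Tgfbi* *Nanos1* (r = 0.91), *Fzd1* (r = 0.89) and *Diras2* (r = 0.87). The points share 4 groups, 2 stages and library depth, so these values only describe the 12 libraries.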

How the data were processed

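The authors aligned paired-end reads to mm10 with Bowtie2 and normalised them with DESeq. The counting program, the annotation and the use of strand are not given in the sources used here. Without strand, reads of *Tgfb2*, *Tgfb3*, *Ltbp2* and *Ltbp3* cannot be told apart from those of antisense genes that share 2.14%, 4.82 and 7.60%, 9.34% and 2.01% of their exonic bases. The deposited table of 12 libraries is named RPKM, but each value is a whole count multiplied by a gene length and a library factor. The deposited mean counts per group, which are expected counts made by the authors from the 3 libraries, allowed the counts of 17827 genes to be recovered to within 5.68e-10 of a whole number. The authors' fold changes, z scores and p-values were not used. RPKM and CPM were then computed with edgeR's TMM scaling (edgeR 4.0.16, R 4.3.3), and TPM without it.

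Comparisons used edgeR's quasi-likelihood test on genes with a mean of at least 0.5 RPKM over the libraries of the fit, with 6 libraries per comparison of 2 groups and 12 for both stages (stage as a term) and for the difference between stages. SEs were derived from the F statistic. DESeq2 1.42.0, limma 3.58.1 on log2(RPKM + 0.5), and other settings were alternatives. Recovery and tests were checked on simulated data. The 10 genes, the pathway and marker lists and the tests were chosen with earlier results of these data known. Named genes are the 10 members, *Hira*, pathway genes past both thresholds and, per member, the 3 genes with the highest correlation. *Smad7*, *Col1a1*, *Eng*, the values of *Col1a2* at each stage and those of *Ltbp4* and *Lrrc32* at E11.5 were added after their values were seen.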

Additional observations from a re-analysis of the deposited data

How the results depend on the processing

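With 3 libraries a group, the 95% interval lay inside a 1.5-fold change for 3 of 9 members at E11.5 and 8 of 9 at E12.5, and *Ltbp2*, with 7 to 47 reads per library, allowed no firm statement. The number of members called stayed at 0 at E11.5, over both stages and for the difference between stages under every alternative run. The cause was not tested for any of the following. At E12.5, 1 member (*Ltbp3*) was called without a fold threshold, and 0 to 1 with a library left out. Over all genes these settings called 628 and 186 to 383, against 371. With stage in the Cre controls the count of 1 became 2 without a fold threshold and 0 with sex as a covariate. Over all genes these settings called 1390 and 19, against 650. With stage in the mutants the count of 0 became 1 (*Ltbp3*) with DESeq2, when genes of low level were kept, and with all 12 libraries in one fit. Over all genes these settings called 226, 119 and 124, against 64. Over all genes DESeq2 called 248 genes against 14 with edgeR at E11.5, 226 against 64 with stage in the mutants and 40 against 0 for the difference between stages. At E12.5 all 12 libraries in one fit called 127 genes against 371.

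Of the pathway genes, the count of 0 at E11.5 became 4 with DESeq2, 4 with all 12 libraries and 2 with the replicate block. Over all genes these settings called 248, 229 and 96, against 14 in the main fit. At E12.5 the count of 2 became 4 without a fold threshold and 0 with all 12 libraries, and was 0 to 2 with a library left out. The same settings called 628, 127 and 186 to 383 of all genes, against 371. Over both stages the count of 4 became 2 at a mean RPKM of at least 5 and 2 with sex as a covariate, and was 2 to 3 with a library left out. The same settings called 119, 428 and 307 to 408 of all genes, against 391. With stage in the Cre controls the count of 2 became 1 at a mean RPKM of at least 5, 4 without a fold threshold and 0 with sex as a covariate, and was 1 to 6 with a library left out. The same settings called 395, 1390, 19 and 45 to 1407 of all genes, against 650. The count of 6 came without E11.5 Cre control replicate 2, where 1407 of 12268 genes were called.

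Several log2 differences that no fit called turned direction. At E11.5, *Tgfbi* was -0.10 with limma at both pseudocounts and -0.09 with the replicate block, and *Tgfbr3* -0.11 with sex as a covariate. With a library left out the values at E11.5 were -0.40 to 0.01 for *Tgfb2*, -0.02 to 0.44 for *Tgfbr3*, -0.12 to 0.05 for *Ltbp1* and -0.18 to 0.38 for *Tgfbi*. At E12.5 they were -0.17 to 0.01 for *Tgfb2*, -0.14 to 0.05 for *Tgfbr1*, -0.17 to 0.06 for *Tgfbr3*, -0.12 to 0.07 for *Ltbp1* and -0.02 to 0.17 for *Tgfbi*. With stage in the Cre controls they were -0.05 to 0.12 for *Tgfb1*, -0.17 to 0.08 for *Tgfb3*, -0.11 to 0.07 for *Tgfbr1* and -0.11 to 0.15 for *Tgfbr3*. In the Cre controls *Tgfbr1* was -0.0042 with DESeq2, -0.01 with median-ratio scaling, -0.0036 and -0.0037 with limma, -0.004 with the replicate block and -0.08 with sex as a covariate, and *Tgfbr3* was 0.0013 and 0.0015 with limma and 0.00062 with the replicate block. With stage in the mutants and a library left out the values were -0.36 to 0.02 for *Tgfb1*, -0.37 to 0.04 for *Tgfb2* and -0.06 to 0.17 for *Tgfbr1*.

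The replicate numbers were not treated as pairs, since the deviations of same-numbered libraries correlated at -0.15 to 0.44 and only 5 of 18 pairs were over 0.1. With the replicate block *Ltbp3* at E12.5 had a log2 difference of -0.48 (edgeR's adjusted p = 0.0102). Over the 16 alternatives with edgeR, DESeq2 or limma its adjusted p ranged from 0.00145 to 0.174, and it was at most 0.05 in 8. Levels in TPM in place of RPKM gave the same 1 gap between neighbours in the order. For the mutant effect over both stages and its difference between stages, the alternatives were tabulated for the members whose values the text gives.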
